A study of Mus musculus with 4 samples.

Results

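Beta-defensins and other epithelial antimicrobial proteins were followed in tumour epithelial cells from chemically induced squamous cell carcinomas of mouse skin. The genes were the beta-defensins Defb6, Defb1, Defb3, Defb4 and Defb14, the cathelicidin Camp, the pentraxin Ptx3, the peptidoglycan recognition protein Pglyrp1 and the lysozyme Lyz2. They were chosen by their positive and negative log2 values on these same arrays, with earlier results known. Of these 9 genes, 8 were represented, by 10 of the 45037 probe sets (18193 genes in all); Defb14 had no probe set assigned to it. The groups were Sox2-GFP-positive cells (n = 2) and Sox2-GFP-negative cells (n = 2), both from malignant primary tumours and both carrying the reporter for Sox2, a transcription factor of stem cells. All cells had been sorted as Epcam-positive, by live gating, and as negative for CD45, CD31 and CD140a. Per the series text, the cells came from 2 carcinomas of 2 mice, and since nothing more is said of the replicates, spreads may be partly technical. The carcinogen, mouse strain and age are not given in the labels used here.

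Epithelia defend their surface with small secreted proteins. Beta-defensins and cathelicidins are cationic peptides that disrupt microbial membranes, lysozyme cuts the peptidoglycan of bacterial walls, and Pglyrp1 and Ptx3 are secreted recognition proteins that bind microbes. In skin, some of these come from keratinocytes, above all from the hair follicle opening and the differentiating layers, and others, such as Camp, Pglyrp1 and Lyz2, are also abundant in neutrophils or macrophages. Toll-like receptors, interleukin-1 and interleukin-17 receptors, and the transcription factors NF-kB and C/EBP are known regulators of this defence programme.

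The deposited values are log2 expression per probe set, so that 1 unit is a 2-fold difference on the linear scale. Array medians lay between 5.49 and 5.60 and lower quartiles between 4.19 and 4.25. With no detection calls in use, a value near or under the lower quartile was treated as dim, and a fold change against it only bounds the difference. Krt5 and Krt14, keratins of basal keratinocytes, were bright, at 13.24 to 13.32 and 12.99 to 13.07 over the 4 arrays. Some fibroblast marker genes were bright as well. Col1a1 read 12.57 and 9.60 in positive and 13.68 and 12.76 in negative arrays, while Fap read only 3.31 to 5.62. Which cells made these transcripts was not tested. Epcam read 10.75 and 11.79 in positive and 11.24 and 11.80 in negative arrays. Sox2 itself was dim on every array, at 3.50 and 3.27 in positive and 3.14 and 3.43 in negative arrays, and so gave no check of the labels. Of the genes gated against, Pecam1, which encodes CD31, and Pdgfra, which encodes CD140a, read 8.44 and 7.83 in negative replicate 1, above the 5.57 to 6.41 and 4.85 to 5.96 of the other arrays. The gene for CD45, Ptprc, had 2 probe sets that disagreed. On one, negative replicate 1 read 6.40 and the others 3.68 to 4.30. On the other, which had the higher mean, it read 4.97 beside 4.98 in positive replicate 1 and 4.34 and 4.18 in the replicate 2 arrays.

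Of the 9 genes, 5 lie on chromosome 8. Defb14, Defb4, Defb6 and Defb3 sit there, with Defb46 and Defb5, in a cluster of 6 defensin genes spanning 135.1 kb (GRCm38.p6), and Defb1 lies further along the chromosome. All 4 cluster genes with a probe set read lower in both positive arrays, as did 18.4% of all probe sets. The gap between groups was at least 1 log2 unit in Defb6 (chr8:19225478-19228209) and Defb3 (chr8:19293361-19295339), and under that in Defb4 and Defb5. The last 2 were dim, under the lower quartile on 4 and 3 of the arrays, so no order of the whole cluster is read from them. The brighter probe set of Ptx3 (chr3:66219887-66225806) had such a gap too. The 250 bases before the starts of Defb6, Defb3 and Ptx3 are shown because these 3 genes had the gaps of at least 1 unit. Each is on the plus strand, from RefSeq's GRCm38.p6 table, and capitals mark matches to a C/EBP motif, TTGCNNAA, on either strand.
Defb6, chr8:19225228-19225477: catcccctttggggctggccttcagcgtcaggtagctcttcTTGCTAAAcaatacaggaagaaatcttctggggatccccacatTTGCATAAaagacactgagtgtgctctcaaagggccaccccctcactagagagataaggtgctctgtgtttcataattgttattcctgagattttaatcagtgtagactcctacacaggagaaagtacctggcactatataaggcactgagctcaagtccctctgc
Defb3, chr8:19293111-19293360: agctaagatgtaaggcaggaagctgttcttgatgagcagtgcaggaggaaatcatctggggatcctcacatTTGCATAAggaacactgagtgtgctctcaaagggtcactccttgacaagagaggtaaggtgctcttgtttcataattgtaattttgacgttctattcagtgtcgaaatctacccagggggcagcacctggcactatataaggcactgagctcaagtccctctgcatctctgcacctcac
Ptx3, chr3:66219637-66219886: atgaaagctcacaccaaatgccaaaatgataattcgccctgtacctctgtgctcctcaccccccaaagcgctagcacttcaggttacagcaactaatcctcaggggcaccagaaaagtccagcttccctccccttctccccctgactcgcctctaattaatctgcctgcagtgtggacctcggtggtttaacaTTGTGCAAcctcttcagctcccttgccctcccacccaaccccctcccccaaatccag

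The 300-base windows of Defb6 and Defb3, which also hold 50 bases after the start, matched at 244 of their 300 bases when aligned (81.3%). Defb5, between them, matched Defb6 at 76.0% and Defb3 at 83.3%. Alignments that paired any of these genes or Defb46 with a non-defensin gene, or 2 non-defensin genes with each other, gave 56.7% to 62.3% in 22 pairs, which shows what unrelated windows reach by this alignment. The C/EBP letters occurred at 2 places in Defb6 (209 and 166 bases before the start), at 1 in Defb3 (179 before) and at 1 in Ptx3 (57 before, on the minus strand). The match at 166 in Defb6 and that at 179 in Defb3 lined up base for base. Of all 32851 windows, 10.8% held this motif, while it was in 3 of the 6 windows found for these genes (Defb1, Defb4 and Defb14 had none). Those with it are Defb6, Defb3 and Ptx3, shown for their gaps, and Defb6 and Defb3 are alike by alignment. The motif was also chosen after the expression values were seen, so nothing is read from this share. A loose NF-kB motif (GGG and CC with any 5 bases between) was in 5 of the 6 windows (all but Lyz2) but also in 50.8% of all windows. AP-1, TGANTCA, and the letters TATAAA were in none of the 6, and in 7.81% and 13.6% of all windows. The search for TATAAA leaves out close variants such as TATATAA, which the printed stretches of Defb6 and Defb3 both hold. These matches describe letters and not bound sites.

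Defb6, a beta-defensin of skin and other epithelia, was bright in both negative arrays and below the array median in both positive ones. It read 5.42 and 4.48 in positive replicates 1 and 2, and 10.66 and 10.35 in negative replicates 1 and 2. Group means were 4.95 ± 0.66 and 10.51 ± 0.22 (SD, n = 2 each), a difference of -5.56, the most negative of all 45037 probe sets. The difference was about as large in either replicate number, at -5.24 (37.8-fold) in the first and -5.87 (58.6-fold) in the second. Positive replicate 2, at 4.48, lay near the lower quartile of its array (4.19), so the second value is read as a bound. In bulk samples such as these, fewer cells of a type and less RNA per cell cannot be told apart.

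**Figure D1:**
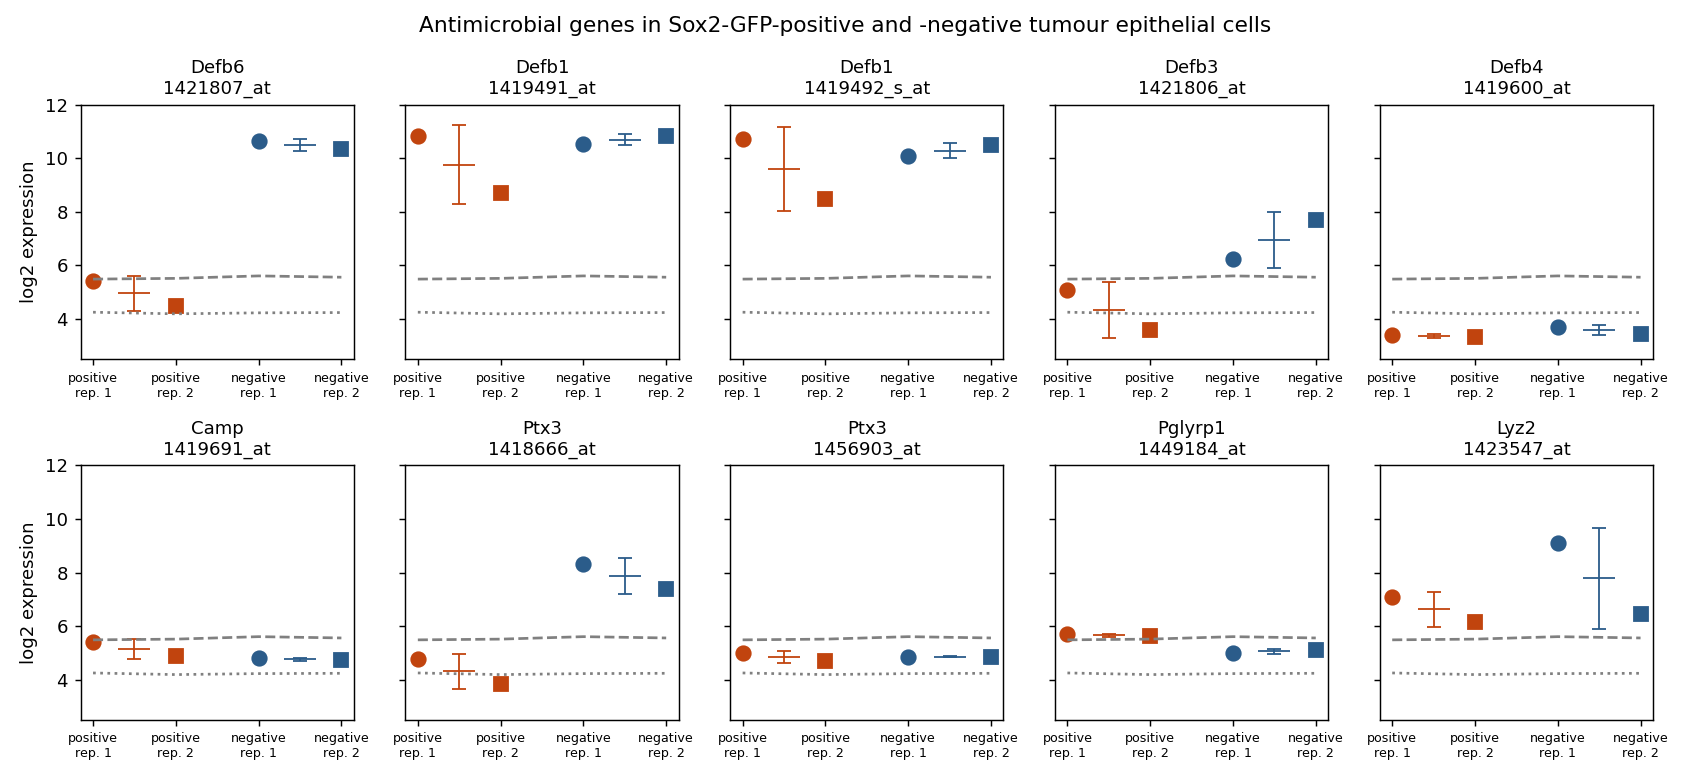
Log2 expression (y axis) of the 10 probe sets on each of the 4 arrays (x axis), with positive arrays in red, negative arrays in blue, circles for replicate 1 and squares for replicate 2. Horizontal marks with bars are group means ± SD (n = 2), the dashed line is the array median and the dotted line the lower quartile. Defb6, Defb3 and Ptx3 1418666_at lie lower in both positive arrays, while Defb1 is low in positive replicate 2 alone and Lyz2 high in negative replicate 1 alone.

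Defb3, an inducible beta-defensin, showed the same order of groups with a wider spread. Positive replicates read 5.07 and 3.59, and negative replicates 6.22 and 7.70. Means were 4.33 ± 1.05 and 6.96 ± 1.04 (SD, n = 2 each), and the groups did not overlap. The gap between the nearest arrays, 1.15, lay between the replicate 1 arrays, where the difference was 2.22-fold, against 17.2-fold between the replicate 2 arrays. Positive replicate 2 lay well below the lower quartile of its array, so the second value is a bound.

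Defb4, an inducible beta-defensin, was dim everywhere. It read 3.42 and 3.32 in positive and 3.71 and 3.45 in negative arrays, below the lower quartile on all 4. Its groups were 0.04 apart at the nearest arrays, so the array gave no usable difference for it. Defb14, the mouse counterpart of human beta-defensin 3, was not analysed here.

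Defb1, the beta-defensin that many epithelia make constitutively, did not follow Defb6. On probe set 1419491_at it read 10.82 and 8.71 in positive and 10.55 and 10.84 in negative arrays, and on 1419492_s_at 10.72 and 8.49 against 10.09 and 10.48. Both probe sets thus put positive replicate 2 alone about 4-fold below its negative partner (4.37-fold and 3.96-fold), while positive replicate 1 was the highest array on one and next to highest on the other. The mean differences of -0.93 and -0.68 rested on that 1 array: without it they were 0.12 and 0.43. The groups overlapped on both probe sets. Among all probe sets, 0.775% had positive replicate 2 alone at least 1 unit below the other 3 arrays, as both of Defb1 did.

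Camp, the precursor of the only mouse cathelicidin, read 5.41 and 4.88 in positive and 4.81 and 4.73 in negative arrays. All 4 values lay below the array medians, and the nearest arrays of the groups were 0.08 apart, less than the 0.53 between the positive replicates.

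Ptx3, a long pentraxin that binds microbes and complement and is made by fibroblasts, endothelium and myeloid cells on inflammatory signals, had separated groups on one of its probe sets and overlapping groups on the other. On 1418666_at it read 4.78 and 3.85 in positive and 8.34 and 7.39 in negative arrays, with means of 4.31 ± 0.66 and 7.87 ± 0.67 (SD, n = 2 each). The same-number differences were -3.56 and -3.54, where the second is a bound, since positive replicate 2 lay below the lower quartile of its array. On 1456903_at all 4 arrays read between 4.70 and 5.01, below the array medians, and the groups overlapped. The mean difference of -3.55 for Ptx3 therefore stands on 1 of 2 probe sets, and their mean gave -1.78.

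Pglyrp1, which binds bacterial peptidoglycan, was the only one of the 10 probe sets with a group gap above 0.1 in the other direction. It read 5.69 and 5.62 in positive and 5.00 and 5.10 in negative arrays, 1.52-fold higher in positive cells (means 5.65 ± 0.05 and 5.05 ± 0.08, SD, n = 2 each). The nearest arrays were 0.52 apart, several times the spread within either group, at values close to the array medians. Among all probe sets, 19.8% had a larger difference in size.

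Lyz2, the lysozyme of macrophages and neutrophils (chr10:117277541-117282272), read 7.09 and 6.17 in positive and 9.12 and 6.45 in negative arrays. Negative replicate 1 stood at least 2.03 above every other array, and the other negative array lay between the positive ones. A single stand-out of at least 1 unit in that array was found in 2.14% of all probe sets. The mean difference of -1.15 became 0.18 without negative replicate 1. Lyz1, a close paralogue, followed the same order on its brightest probe set, 6.47 and 5.81 against 9.35 and 6.37. That probe set carries the suffix by which the array's makers mark possible cross-hybridisation, so signals of Lyz1 and Lyz2 cannot be told apart on it. The third Lyz1 probe set, which lacks that suffix, was dim (3.64 to 4.27) and did not show this order, so the values give no separate reading of Lyz1.

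Counted over the 10 probe sets, groups did not overlap in 4 with positive arrays lower (Defb6, Defb3, Defb4 and Ptx3 1418666_at), where 18.4% of all probe sets did so, and in 2 with positive arrays higher (Camp and Pglyrp1), beside 29.7%. A gap of at least 1 unit was found in 3, all lower, beside 1.37% lower and 0.462% higher among all probe sets. Because the genes were picked with this contrast known, nothing is read from these counts. Same-number differences had opposite signs in 3 of the 10 probe sets (both of Defb1 and the second of Ptx3), beside 37.3% of all. Limma called 0 of the 45037 probe sets at an adjusted p under 0.05 in either direction (0% of all, lowest adjusted p = 0.226), with 3349 higher and 2976 lower at an unadjusted p under 0.05 (7.44% and 6.61%).

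Setting the arrays to equal levels of 24 spiked-in bacterial transcripts' probe sets added 0.79 to every difference and moved the median over all probe sets from 0.07 to 0.86. Under it Defb6, Defb3 and the brighter Ptx3 probe set still read lower in positive cells (-4.77, -1.84 and -2.76), Defb4 turned to 0.58 and Defb1 1419492_s_at to 0.11. Directions below are those of the deposited scale, and any difference between -0.79 and 0 turns positive under this scaling.

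**Figure D2:**
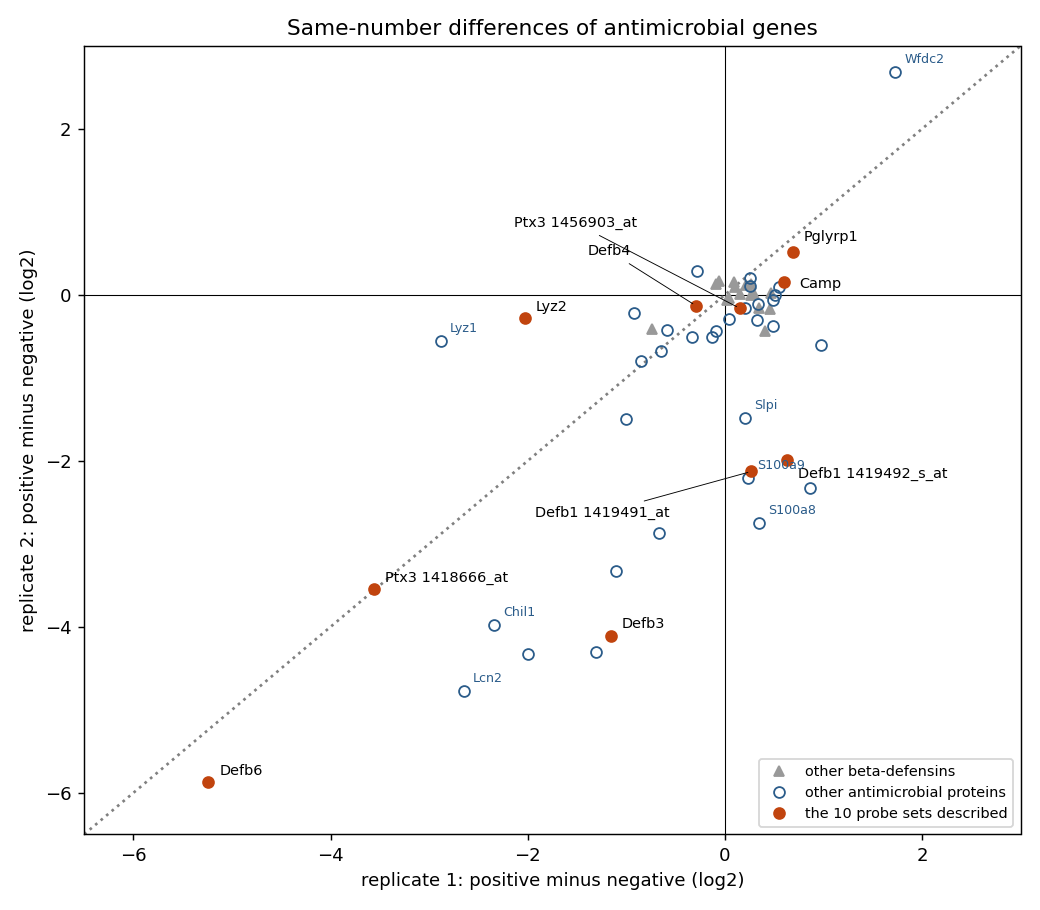
Positive minus negative log2 difference in replicate 1 (x axis) and in replicate 2 (y axis) for the 10 probe sets (red), 16 other beta-defensins (grey triangles) and 32 other antimicrobial proteins (blue circles), with the dotted line where both are equal. Defb6 and Ptx3 1418666_at lie near that line, Defb1 lies low on the y axis alone at -2.13 and -1.99 beside S100a8, S100a9 and Slpi, and Lyz2 lies low on the x axis alone beside Lyz1.

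The rest of the beta-defensin family was compared next, in order to set the cluster genes beside their relatives. Of 16 other beta-defensins measured, many of them genes of the male reproductive tract, 10 were below the lower quartile on all 4 arrays. Differences ran from -0.58 to 0.25 with a median of 0.09, beside 0.14 over all 18193 genes. Groups did not overlap in 5 above and 1 below, against 35.5% and 14% of all genes. Limma called 0, and 0 were at an unadjusted p under 0.05. Defb5, the neighbour of Defb6 and Defb3, was the one below, at 3.50 and 3.29 against 4.24 and 3.70, with 3 of these 4 values under the lower quartile. Its adjusted p was 0.406 by limma. The others nearest to a difference by p were Defb45, Defb41 and Defb42, with 0.25, 0.20 and 0.17 (limma adjusted p = 0.619, 0.653 and 0.715).

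Other antimicrobial and host-defence proteins had lower differences, taken by their median, than the 18193 genes as a whole. Of 38 listed, 32 were measured, with a median difference of -0.46 beside 0.14, or 0.33 beside 0.93 on the spike-in scale. Groups did not overlap in 12 below and 3 above, beside 14% and 35.5% of all genes, and overlapped in 17. Limma called 0 in either direction, while at an unadjusted p under 0.05 stood 9 lower and 1 higher. Of all 18193 genes, 918 were lower and 1785 higher at that limma p. These shares apply to the counts of the lists below too.

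Lcn2, a protein that withholds iron from bacteria by binding their siderophores, read 6.69 and 4.92 in positive and 9.34 and 9.69 in negative arrays. This was a difference of -3.71 ± 0.62 (SE, 2 arrays a group, limma adjusted p = 0.233). Chil1, a chitinase-like glycoprotein, read 5.67 and 5.06 against 8.01 and 9.04 (-3.16 ± 0.43, limma adjusted p = 0.226). Both thus had negative arrays above positive ones by more than 2 units, as Defb6 and Ptx3 did. Reg3g, a lectin that kills Gram-positive bacteria, read 4.73 and 4.22 against 5.74 and 5.73 (-1.25 ± 0.24, limma adjusted p = 0.242). Wfdc2, a whey-acidic-protein family member, was opposite, with 7.99 and 8.76 in positive and 6.26 and 6.08 in negative arrays (2.21 ± 0.31, limma adjusted p = 0.226). None of these 4 passed the test.

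A second set of proteins had the pattern of Defb1. S100a8 and S100a9 encode the subunits of the metal-binding protein calprotectin. S100a8 read 11.60 and 8.24 in positive and 11.25 and 10.99 in negative arrays, and S100a9 read 12.35 and 9.74 in positive and 12.12 and 11.95 in negative arrays. Slpi, a protease inhibitor with antimicrobial activity, read 11.96 and 9.85 against 11.76 and 11.34. In these 3 genes positive replicate 2 was the only low array, by at least 1 unit. Positive replicate 2 was the lowest array by at least 1 unit in 8 of the 32 genes of the list, beside 1.22% of all genes. The groups overlapped in 4 of these 8, as for Defb1 (S100a8, S100a9, Slpi and Spink5). In the other 4 (Lcn2, Wfdc5, Pla2g2f and Saa3) positive replicate 1 also lay below both negative arrays. Limma adjusted p for S100a8, S100a9 and Slpi was 0.668, 0.652 and 0.725.

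**Figure D3:**
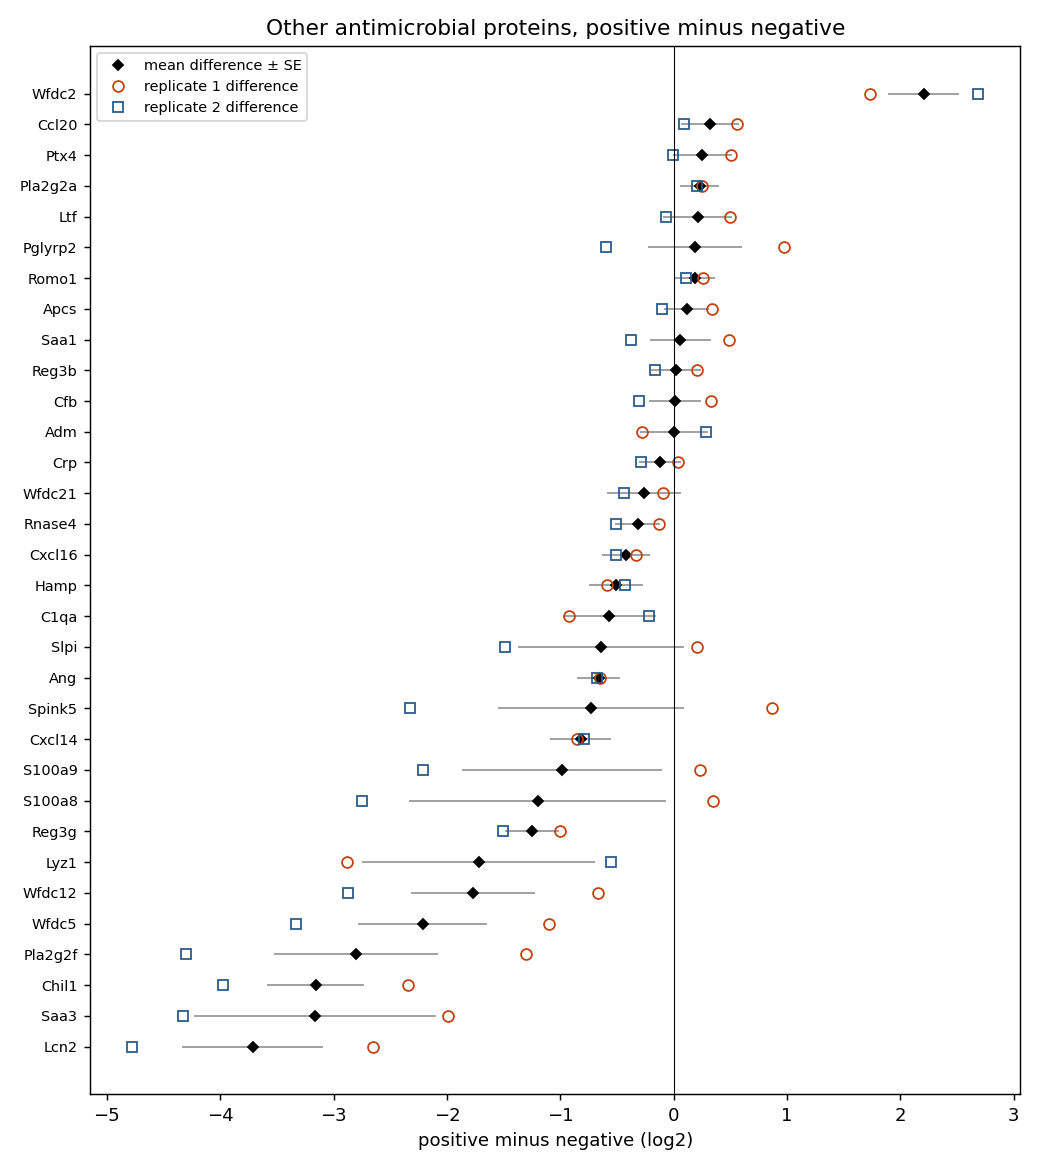
Positive minus negative log2 difference (x axis) of the 32 other antimicrobial proteins (y axis), as the mean ± SE from limma (diamonds, n = 2 per group) and as the differences of replicate 1 (circles) and replicate 2 (squares). Lcn2, Saa3 and Chil1 are lowest and Wfdc2 highest, and for S100a8, S100a9, Slpi and Spink5 the replicate 1 difference is above 0 and that of replicate 2 below -1.

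Sensors and signals that act upstream of the antimicrobial genes were described next, beside 35.5% of all genes separated above, 14% below and an overall median of 0.14. Among 30 receptors and adaptors the median was 0.00, with 4 genes separated above and 8 below, 0 called by limma and 0 higher and 2 lower at an unadjusted p under 0.05. Those 2 were Il1r1, the interleukin-1 receptor, at 7.06 and 7.03 against 8.70 and 8.29 (-1.45 ± 0.22, limma adjusted p = 0.226), and Irak3, an inhibitor of Toll-like and interleukin-1 receptor signalling, at 5.95 and 5.03 against 7.98 and 8.73 (-2.86 ± 0.43, limma adjusted p = 0.226). The adaptor Myd88 differed by -0.45 and Tlr6 by 0.40. Il17ra, the interleukin-17 receptor chain, read 9.49 and 10.19 against 10.40 and 10.22.

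The upstream cytokine list held 20 symbols, in which Il36a, Il36b and Il36g repeat the older Il1f6, Il1f8 and Il1f9. Of the 13 cytokines measured, groups did not overlap in 4 above and 3 below, with a median of 0.14. Limma called 0 (1 higher and 2 lower at an unadjusted p under 0.05). Il6 read 4.88 and 5.43 in positive and 8.14 and 7.60 in negative arrays (-2.72 ± 0.31, limma adjusted p = 0.226), and Il1f8, an interleukin-36 family cytokine, differed by -0.59. Lif and Tnf read higher in positive arrays, at 10.24 and 10.64 against 9.20 and 8.24, and at 7.78 and 9.03 against 6.65 and 7.45. The inflammatory cytokines on this list thus pointed both ways.

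Among 24 transcription regulators measured of 27, the median was -0.30, with 10 separated below and 3 above, 0 called by limma and 4 lower and 0 higher at an unadjusted p under 0.05. Those 4 were Cebpd, Cebpa, Vdr and Stat3. Cebpd, a C/EBP factor of acute inflammation, read 7.52 and 8.18 against 9.74 and 9.44 (-1.75 ± 0.29, limma adjusted p = 0.233). Vdr, the vitamin D receptor, read 8.32 and 8.95 against 9.95 and 9.999, and Cebpa and Stat3 differed by -1.08 and -0.90.

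The array profiles of Defb6, Ptx3, Lyz2 and Defb1 were then set beside all other genes and beside markers of the cells a tumour sort can hold. Likeness was the Euclidean distance over the 4 arrays after each profile was centred on its own mean, so it describes shape and size over 4 values only. Nearest to Defb6 were Krt79, the keratin of follicle opening and sebaceous duct cells (distance 0.86), Klk7, a protease of the cornified layer (1.41), Sdr16c6, Aadac and Lgr5, an R-spondin receptor found on follicle stem cells (1.63). Nearest to Ptx3 1418666_at were Cers4, a ceramide synthase, Igfbp5, Egr2, Lhx2 and, farthest of them, Col5a3, a collagen chain, at 0.33 to 0.55. None of these is on the fibroblast list described below. Nearest to Lyz2 were Dmp1, Hoxc10, Adgra2, Mmp23 and Tyrobp, a signalling adaptor of myeloid cells, at 0.26 to 0.34. Only Tyrobp, the farthest of them, is on the macrophage and leukocyte list described below. Nearest to Defb1 were Il1rn, the interleukin-1 receptor antagonist, Il33, Epb41l3 and the cornified envelope genes Sprr2f and Sprr2h, at 0.17 to 0.36.

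**Figure D4:**
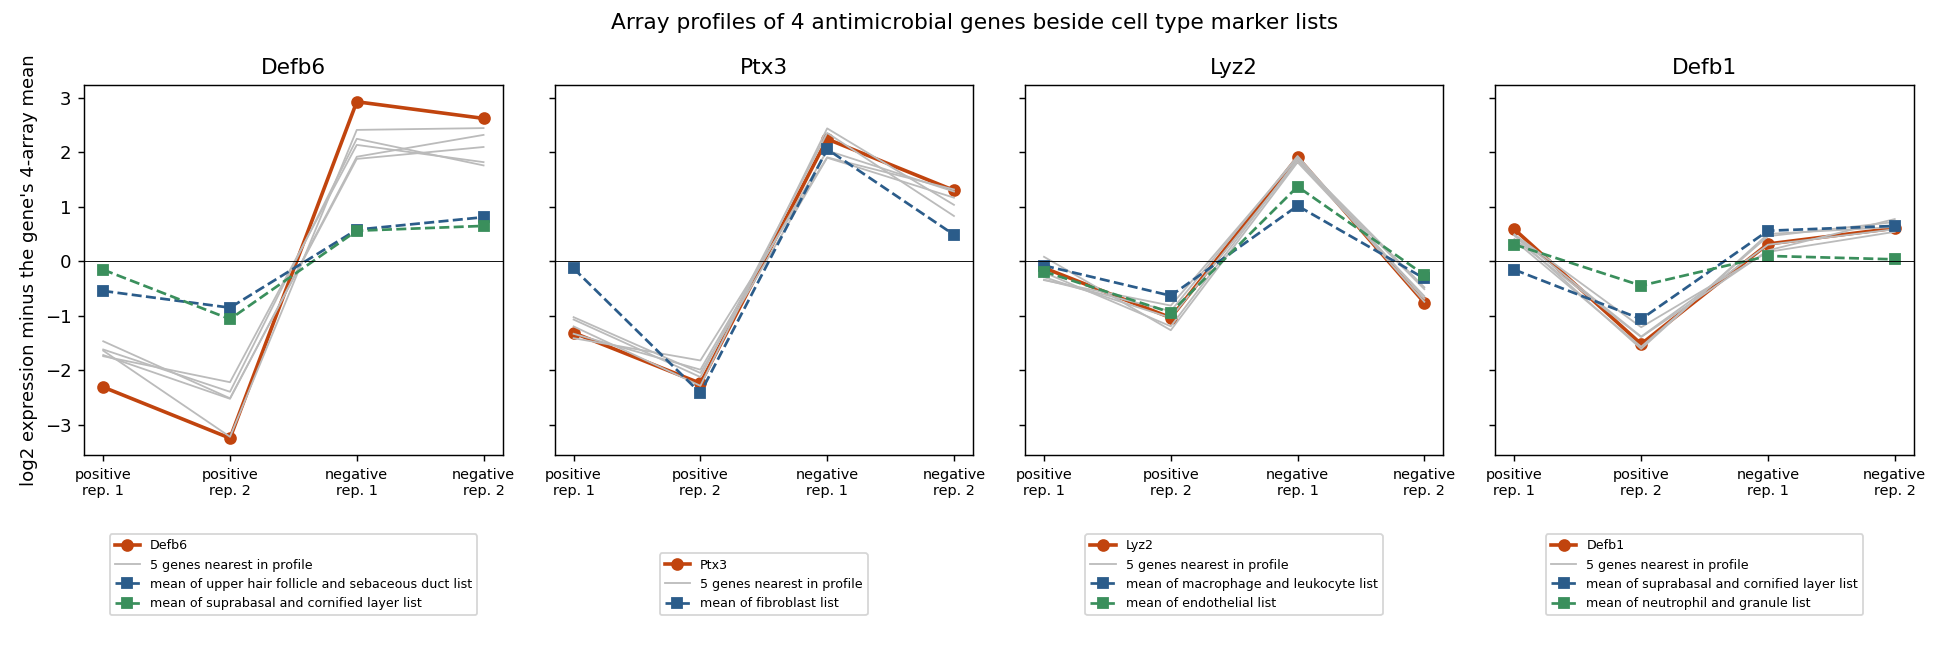
Log2 expression minus each gene's 4-array mean (y axis) on the 4 arrays (x axis) for Defb6, Ptx3, Lyz2 and Defb1 (red), the 5 genes nearest to each in profile (grey) and the means of marker lists (dashed blue and green). The arrays have no order, and lines only join the points of 1 profile. The fibroblast list has its highest value, 2.06, in negative replicate 1, as have Ptx3 and Lyz2, and the macrophage list is above 0 in that array alone.

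Markers of the upper hair follicle and of the sebaceous duct, the site where Defb6 and Krt79 are known to be made, had a median difference of -1.02 beside Defb6. All 9 were measured, with 6 separated below (14% of all genes were), 0 above, 3 overlapping and 4 lower at an unadjusted p under 0.05 (0 called by limma). Their mean level relative to each gene's 4-array mean was -0.54 and -0.85 in positive and 0.58 and 0.81 in negative arrays. Krt79 read 7.69 and 6.11 against 11.75 and 11.78, and Cst6, a protease inhibitor of the cornified layer, 8.02 and 6.99 against 10.71 and 11.14. The other 2 with small p were Atp6v1c2 and Gata6, a transcription factor of the sebaceous duct, at -1.24 and -1.19. Plet1 and Lrig1, which mark stem cells of this region, differed by -0.32 and -0.47, Lrig1 with overlapping groups. The groups also overlapped in Krt17 (-0.21) and in Klk10, which read 9.32 and 8.85 against 8.87 and 8.94 (0.18).

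The suprabasal and cornified layer list (20 genes) had a median of -0.55, with 10 separated below and 2 above, beside 14% and 35.5% of all genes. The list had 9 lower and 0 higher at an unadjusted p under 0.05 (918 and 1785 of all 18193 genes) and 0 called by limma. Its mean level was -0.15 and -1.06 in positive and 0.56 and 0.65 in negative arrays, with positive replicate 2 lowest, as it also was in the hair follicle, macrophage, neutrophil, fibroblast and endothelial lists. That array was lowest by at least 1 unit in 5 genes of the list. In 4 of them positive replicate 1 lay below both negative arrays too, as in Krt1, an early keratin of differentiating cells, at 11.43 and 9.92 against 12.57 and 12.66. The groups overlapped, as for Defb1, in the remaining one, Sprr2d. Klk7, Calml3, Flg and Klk5 had the smallest p, with differences of -4.24, -1.89, -2.48 and -2.34. The keratinocyte list (12 genes) had a median of 0.03, with 5 separated above and 3 below, and 0 called by limma (1 higher and 1 lower at an unadjusted p under 0.05). Its members with the smallest p were Itgb4 (1.22), Cdh1 (-0.96), Itga6 (0.56) and Krt18 (1.45).

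Fibroblast markers had positive arrays below negative ones beside Ptx3. All 13 measured of 14 were separated below (14% of all genes were), with a median of -2.69. At an unadjusted p under 0.05 stood 4 of them (Mfap5, Postn, Fap and Lum), with 0 called by limma. Their mean level was -0.13 and -2.42 in positive and 2.06 and 0.49 in negative arrays. Positive replicate 2 was the lowest array by at least 1 unit in 11 of the 13, and negative replicate 1 the highest by at least 1 unit in 10, so that both arrays that set Defb1 and Lyz2 apart stood out here as well. Mfap5, a microfibril protein, read 5.29 and 4.67 against 8.34 and 7.37. The part of these cells in the Ptx3 values was not tested.

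Macrophage and leukocyte markers (18 genes) had a median of -0.70, with 3 separated below and 1 above, beside 14% and 35.5% of all genes. Of these markers 0 were called by limma (0 at an unadjusted p under 0.05). Their mean level was -0.08 and -0.63 in positive and 1.02 and -0.31 in negative arrays. In 9 of the 18, among them Tyrobp, Laptm5, C1qb, Mrc1 and Ctss, negative replicate 1 alone was at least 1 unit above the others, as for Lyz2, beside 2.32% of all genes. Ctss, a lysosomal protease of antigen-presenting cells, read 6.31 and 5.59 against 9.09 and 6.27. Endothelial markers (8 genes) had the same order, with a median of -1.02, 1 separated below and 7 with that array alone high. Emcn, Cldn5, Eng and Kdr had the smallest p there, with 0 of the 8 called by limma and 0 at an unadjusted p under 0.05. The part of leukocytes or of the other gated-out cells in the Lyz2 values was not tested.

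Neutrophil and granule markers gave no such order. Of 14 listed, 12 were measured, with a median of -0.06, 1 separated above and 2 below, and 0 called by limma (0 at an unadjusted p under 0.05). Their mean level was 0.31 and -0.45 in positive and 0.10 and 0.04 in negative arrays. S100a8 and S100a9, also on the list of other antimicrobial proteins, were its only genes with positive replicate 2 lowest by at least 1 unit. Elane, neutrophil elastase, read 4.90 and 4.36 against 4.18 and 4.07, beside the 4.73 to 5.41 of Camp. Prtn3 and Itgb2 differed by 0.28 and -0.46.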

How the data were processed

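Each sample was hybridised to its own mouse 3' expression array from Affymetrix. Per the labels' protocols, 100 ng of total RNA was amplified and labelled with biotin after bacterial transcripts had been added as controls. The values deposited by the authors are on a log2 scale, as read from their range (2.73 to 14.36), for 45101 probe sets on 4 arrays. The submitters' processing notes name R 2.14.0. How background was corrected, arrays were normalised and probes were summarised is not given in the sources used here, and no detection calls were used.

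Groups and replicate numbers came from the sample titles. The platform annotation assigned 1 gene to 34945 of the 45037 probe sets left after 64 control probe sets were removed, several to 932 and none to 9160. The 18193 genes were each represented, for lists, by the probe set with the highest mean. Differences are positive minus negative. The test was limma 3.58.1 (R 4.3.3; lmFit, eBayes) over all 45037 probe sets with group as the only term, and a Benjamini-Hochberg adjusted p under 0.05. On simulated data with 2 arrays a group, 45037 probe sets and noise drawn independently for each array, limma called 0 of 200 changes of 2 log2 units. Of 200 changes of 4 it called 179, with 9 false calls, and 149 with the replicate number as a block. The deposited arrays may differ from this setting, since Krt79, with a difference of -4.86, was not called, so these shares need not hold for them.

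The 9 genes and the 14 lists (213 genes measured) were chosen with earlier results of these data known, so the 9 genes get no test of this contrast. Of other genes, the rule named the sort markers, Lcn2, Slpi, S100a8, S100a9 and Lyz1, up to 4 genes a list with the smallest unadjusted p, and the 5 genes nearest in array profile to Defb6, Ptx3, Lyz2 and Defb1 (Euclidean distance of centred profiles). Other genes named for standing apart on 1 array, and Krt5, Krt14, Krt17, Klk10, Plet1, Lrig1 and Il17ra, were chosen after their values were seen.

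The series text names 2 tumours of 2 mice as the source of both populations, so equal replicate numbers were read as the same tumour, which the labels do not state. Replicate 1 minus replicate 2 differences of the positive and negative arrays correlated across probe sets with r = 0.18, over probe sets that are not independent. Promoter windows are RefSeq's (GRCm38.p6), 250 bases before to 50 after a gene's start. They were searched on both strands, and aligned end to end with Biopython 1.88. The motifs were chosen after the expression values were seen. With 2 arrays a group, precision is limited by their number.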

Additional observations from a re-analysis of the deposited data

How the results depend on the processing

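Limma called 0 probe sets and 0 of the 213 listed genes as deposited, with the replicate number as a block (lowest adjusted p = 0.0974), and with quantile normalization, equal medians, a trended prior, an adjusted p under 0.1, without the dimmer probe sets, with 1 probe set a gene, and without each array in turn (the lone array then assumed to vary like the other group). Spike-in scaling called 26711 higher and 315 lower probe sets, and 77 higher and 17 lower listed genes; it adds 0.79 to every difference. Added after seeing the data, the replicate block with 1 probe set a gene called 13 higher and 158 lower genes (lowest adjusted p = 0.0262), of the listed genes 0 higher and 15 lower. The block together with quantile normalization called 0, as did the block on the brighter probe sets. Fewer features were tested in that fit (18193), and the cause was not tested otherwise.

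Of the 10 probe sets, 4 had positive arrays all lower and 2 all higher. The second count was 4 under spike-in scaling and 0 with a gap of at least 1 unit. Leaving out an array gave 4 to 8 lower and 2 to 4 higher; the highest counts came without positive replicate 1 and without positive replicate 2. Defb4 turned from -0.21 to 0.58 under spike-in scaling. Differences of Defb6 stayed between -6.03 and -4.77, of Defb3 between -3.37 and -1.84. Quantile normalization and equal medians moved 1 of the 10 by more than its replicate spread, Pglyrp1, to 0.68 and 0.69. Values near the lower quartile limit Defb4, the positive arrays of Defb3 and Ptx3, and positive replicate 2 of Defb6.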

Other observations

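Proteases that cut antimicrobial precursors in the skin, and their inhibitors, held some of the wider separations next to Defb6. Of 11 listed, 10 were measured, with a median difference of -0.10, 4 genes separated below and 3 above, and 0 called by limma (4 lower and 0 higher at an unadjusted p under 0.05). Klk5, which processes the human cathelicidin, read 4.92 and 3.97 in positive and 6.67 and 6.90 in negative arrays. Klk7 read 7.65 and 6.85 against 11.30 and 11.70, and Klk6 read 5.93 and 5.56 against 7.48 and 8.50. Spint1, an inhibitor of membrane serine proteases, differed by -0.56.

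Receptors and partners reported for defensins and cathelicidin (6 measured of 7) had a median of 0.02, with 1 separated above and 2 below, and 0 called by limma (1 lower at an unadjusted p under 0.05). Egfr read 8.60 and 8.62 in positive and 9.01 and 9.41 in negative arrays. Fpr2, a formyl peptide receptor that binds the cathelicidin peptide, read 4.03 and 3.64 against 4.47 and 4.20. Ccr2 and P2rx7 differed by 0.21 and 0.03.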
